A study of Rattus norvegicus with 27 samples.

Results

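Of the 36865 genes in the count table, 4 are described here: Hcn2, Hcn3 and Hcn4, which encode pore-forming subunits of hyperpolarization-activated cyclic nucleotide-gated (HCN) channels, and Pex5l, which encodes the HCN auxiliary subunit TRIP8b. They were found by matching the NCBI gene ID of each row to the rat gene symbol, and all 4 had a row. Hcn2, Hcn3 and Hcn4 had reads in all 27 libraries, and Pex5l had none in any. The RNA came from the medial prefrontal cortex (mPFC) of 27 adult male Wistar rats, 1 library per rat, with tissue taken at rest from the home cage. The rats had been tested repeatedly for anxiety in a plus-maze, an open field and a light-dark box and were chosen along the range of their composite anxiety score, but the scores of single rats were not used here, so all rats form 1 group and there is no control group. The labels name the genotype only as Wistar rats and give learned helplessness as the treatment, which the methods do not describe. Rats are named below by the number of their library. The tissue was homogenized bilateral mPFC from a coronal section, so each value is a sum over all cell types in it.

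HCN channels open when the membrane is hyperpolarized and carry the mixed sodium and potassium current Ih, which sets the resting potential, dampens dendritic integration and supports rhythmic firing. Their subunits join as tetramers, and a cyclic nucleotide-binding domain near the carboxyl end lets cAMP shift the voltage at which they open. In prefrontal pyramidal cells this coupling is known as a route by which noradrenaline acts on working memory networks. HCN2 is spread widely through the brain, HCN3 is known for little or no opening by cAMP, and HCN4 is slow, strongly cAMP-responsive and best known as the pacemaker channel of the heart. TRIP8b binds the channels, directs them along dendrites and opposes the action of cAMP.

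Of the 4 genes, 1 had a promoter sequence in the RefSeq table used here (build GRCr8). It is that of Hcn2 and is printed to show the base composition in front of that gene. The 250 bases before its start lie at chr7:10639458-10639707 on the minus strand of that build, which may not be the build used for the counts, and CG dinucleotides are in capitals.
Hcn2 promoter: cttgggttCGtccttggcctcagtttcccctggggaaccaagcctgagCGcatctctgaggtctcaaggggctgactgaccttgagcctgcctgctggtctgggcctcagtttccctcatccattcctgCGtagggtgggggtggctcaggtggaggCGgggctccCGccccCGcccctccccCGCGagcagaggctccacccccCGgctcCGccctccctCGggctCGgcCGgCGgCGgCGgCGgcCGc
This stretch held 18 CG dinucleotides and 71.6% G or C. Of the 27457 genes with such a stretch, 78.3% held fewer CG dinucleotides, with a median of 6.0, and 93.3% had a lower G and C share, with a median of 52%. The motif GGGCGG, read on both strands, occurred 3 times in the Hcn2 stretch. It occurred at least once in 32.4% of all stretches and as often as in Hcn2 or more in 8.09%, which describes the letters only. Hcn3, Hcn4 and Pex5l had no entry.

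Between 4907255 and 12771309 reads were counted per library. The totals fell apart by library number: the 16 libraries numbered up to 31 had 4907255 to 8568317 reads and the 11 numbered from 32 had 9404220 to 12771309, so that depth and library number cannot be told apart. The methods mention 2 cohorts of male Wistar rats, and the sources used here do not say whether the number parts cohorts, sequencing runs or something else. The relations between the HCN genes are also given within this split. Markers of the cortex were present, with 6 of 6 excitatory neuron genes measured, while Cux1 among the upper layer genes and Sst among the GABAergic interneuron genes were listed at 0 in every library. Levels are normalized counts, that is, read counts divided by a size factor per library. Since no transcript lengths were used, levels are compared between rats and not between genes.

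Hcn2 (gene ID 114244) was read 554 to 2133 times per library, with a median of 1087. Its level was lowest in rat 3 at 847.2 normalized counts, had a median of 1191 and was highest in rat 32 at 1497, with a mean of 1173 ± 169 (SD, n = 27). The highest rat was thus 1.77 times the lowest. Beside rat 3, rats 18 and 22 lay low at 855.5 and 937.9, and rats 35 and 26 followed rat 32 from the top at 1419 and 1395. Counting noise made up 4.21% of the variance between rats, the smallest share of the 3 HCN genes. The spread exceeded a Poisson distribution with a chi-square of 23.8 per degree of freedom (chi-square dispersion test, adjusted p = 1.33e-112). Of the 11730 genes tested, 89.8% passed the same test.

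Hcn3 (gene ID 114245) was read 81 to 331 times per library, with a median of 180. Its level had a mean of 192 ± 27.1 normalized counts (SD, n = 27) and a median of 199. Rats 19 and 3 were set apart at the low end with 115.6 and 123.9, and the next rat, 9, had 161.9. At the top the rats lay close together, with rat 32 at 228.7, rat 51 at 227.3 and rat 43 at 221.8. The coefficient of variation of 14.1% was close to the 14.4% of Hcn2, but counting noise made up 26.9% of the variance. The spread was larger than counting gives (chi-square of 3.37 per degree of freedom, chi-square dispersion test, adjusted p = 2.34e-08).

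Hcn4 (gene ID 59266) had the fewest reads, 7 to 73 per library with a median of 40. Its level had a mean of 38.0 ± 11.3 normalized counts (SD, n = 27) and a median of 37.2. The same 2 rats stood at the bottom, rat 3 with 10.7 and rat 19 with 13.5, followed by rat 18 with 25.8. Rat 26 was highest at 59.4, rat 17 had 54.6 and rat 15 had 51.4. The highest rat was 5.55 times the lowest, the coefficient of variation was 29.6%, and counting noise made up 30.8% of the variance. The spread again exceeded counting (chi-square of 2.89 per degree of freedom, chi-square dispersion test, adjusted p = 1.78e-06).

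Pex5l (gene ID 286937) was listed at 0 in all 27 libraries. A count of 0 allows a share of up to 6.11e-05% of the reads in the shallowest library and 2.35e-05% in the deepest, from counting error only. The 0 cannot be read as missing expression, since Sst and Cux1, which cortical neurons express, were also at 0 in every library. So was Neo1, the neighbour of Hcn4. In all, 6059 of 20624 protein-coding rows, or 29.4%, were at 0 in every library, a share that does not separate unexpressed genes from uncounted ones. The nearest gene before Pex5l, Usp13, which encodes a ubiquitin protease, was read 289 to 803 times per library and had 510 ± 58.0 normalized counts (SD, n = 27). No fold change, correlation or test was made for Pex5l.

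**Figure D1:**
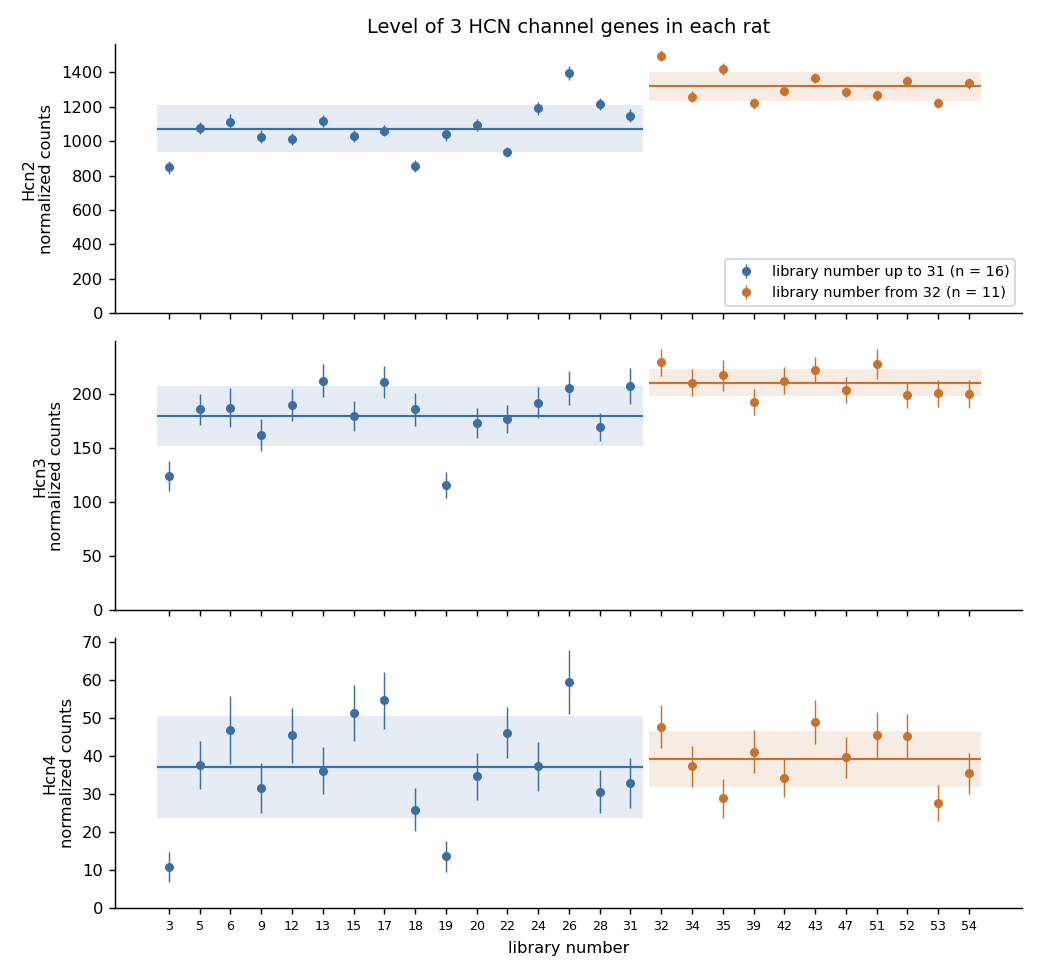
Normalized counts of Hcn2, Hcn3 and Hcn4 (vertical axes) in each of 27 rats, in order of library number (horizontal axis). Points are rats with bars of 1 counting SD, lines and shaded bands are the mean ± SD of the 16 libraries up to 31 (blue) and of the 11 from 32 (orange). Rats 3 and 19 lie lowest in Hcn3 and Hcn4, and 15 of the 16 blue rats lie below every orange rat in Hcn2.

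Hcn2 and Hcn3 were higher in the libraries numbered from 32, and Hcn4 did not pass the test. In the 16 libraries up to 31, Hcn2 ran from 847.2 over a median of 1069 to 1395 normalized counts, with a mean of 1072 ± 135 (SD, n = 16). In the 11 from 32 it ran from 1220 over a median of 1290 to 1497, with a mean of 1319 ± 85.0 (SD, n = 11). The groups overlapped through rat 26 alone, the only library up to 31 above the lowest library from 32. The log2 difference was 0.30 (SE 0.056, 1.23-fold, edgeR quasi-likelihood test, adjusted p = 3.76e-04). Over all genes 18% of 11716 were called between these libraries, and 8.85% were called higher from 32. Fewer cells of a type and less RNA per cell cannot be told apart in such tissue.

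For Hcn3 the libraries up to 31 ran from 115.6 over 185.7 to 211.9 normalized counts, with a mean of 180 ± 27.6 (SD, n = 16). Those from 32 ran from 192.0 over 210.0 to 228.7, with a mean of 210.0 ± 12.4 (SD, n = 11). All 11 lay above the median of the libraries up to 31, and 5 lay above the highest of them. The log2 difference was 0.22 (SE 0.070, 1.17-fold, edgeR quasi-likelihood test, adjusted p = 0.0251). Without rat 3 it was 0.20 with an adjusted p of 0.0243 by the same test.

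For Hcn4 the libraries up to 31 ran from 10.7 over 36.6 to 59.4 normalized counts, with a mean of 37.1 ± 13.5 (SD, n = 16). Those from 32 ran from 27.6 over 39.6 to 48.9, with a mean of 39.2 ± 7.31 (SD, n = 11), inside the range of the others. The log2 difference was 0.07 with an SE of 0.17 (edgeR quasi-likelihood test, adjusted p = 0.813). With an SE of this size, a difference as large as that of Hcn2 could not be told from none. Whether the difference of Hcn4 was smaller than that of Hcn2 was not tested. Among the cell type markers, 1 of 6 excitatory neuron genes and 1 of 5 interneuron genes were called higher from 32, against 8.85% of all genes, with summed excitatory levels of 31913 to 41324 up to 31 and 35106 to 46754 from 32. Their part in the result was not tested.

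Hcn2 and Hcn3 rose and fell together across the rats. Spearman's rho of log2(normalized count + 1) was 0.740 (permutation test, p = 2.00e-05, n = 27), with an adjusted p of 5.46e-04 among genes tested against Hcn2 and 0.00164 among those tested against Hcn3. Pearson's r was 0.649 (permutation p = 2.10e-04, adjusted p = 0.00275). Without rats 3 and 18, the farthest from the median of Hcn2, r was 0.597 (permutation p = 6.00e-04, n = 25). A call alone was common, since 22.4% of the 11729 genes tested were called with Hcn2 and 17.2% with Hcn3. Of the genes tested, 2.21% had a higher rho with Hcn2 than Hcn3 had, and 0.571% had a higher rho with Hcn3 than Hcn2 had.

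Within the library number blocks rho was lower and did not pass a test. Spearman's rho was 0.468 in the 16 libraries up to 31 (permutation p = 0.0696) and 0.518 in the 11 from 32 (permutation p = 0.108). With the block difference taken out of both genes, rho over all 27 rats was 0.507 with a permutation p of 0.0062 and an adjusted p of 0.0653, and the call was lost. Leaving out each rat in turn gave a rho between 0.709 and 0.790, called in 27 of 27 cases. Without rats 3 and 19 rho was 0.696 (permutation test, adjusted p = 0.00226). With the summed mature oligodendrocyte level taken out of both genes, rho was 0.749 (permutation test, adjusted p = 4.53e-04).

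Hcn3 and Hcn4 had a rho of 0.375 (permutation p = 0.0554, adjusted p = 0.173 against Hcn3 and 0.274 against Hcn4, n = 27), which was not called. Pearson's r was 0.753 (permutation p = 5.70e-04, adjusted p = 0.00548), but it rested on rats 3 and 19, which were lowest in both genes. Without these 2 rats r was 0.242 (permutation p = 0.242, n = 25). Spearman's rho was 0.594 in the libraries up to 31, which include both rats (permutation p = 0.0179, n = 16), and 0.355 in those from 32 (permutation p = 0.285, n = 11). Leaving out each rat in turn gave 0.301 to 0.449, called in 0 of 27 cases at the adjusted threshold, where the highest adjusted p was 0.331 by the permutation test.

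Hcn2 and Hcn4 had the lowest rho of the 3 pairs, 0.240 (permutation p = 0.226, adjusted p = 0.406 against Hcn2 and 0.504 against Hcn4, n = 27). Pearson's r was 0.439 (permutation p = 0.0215, adjusted p = 0.0739), and without rats 3 and 18 it was 0.144 (permutation p = 0.502, n = 25). Without rat 3 alone r was 0.244 (permutation p = 0.233, adjusted p = 0.402). Spearman's rho was 0.274 up to 31 (permutation p = 0.305, n = 16) and 0.300 from 32 (permutation p = 0.371, n = 11).

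**Figure D2:**
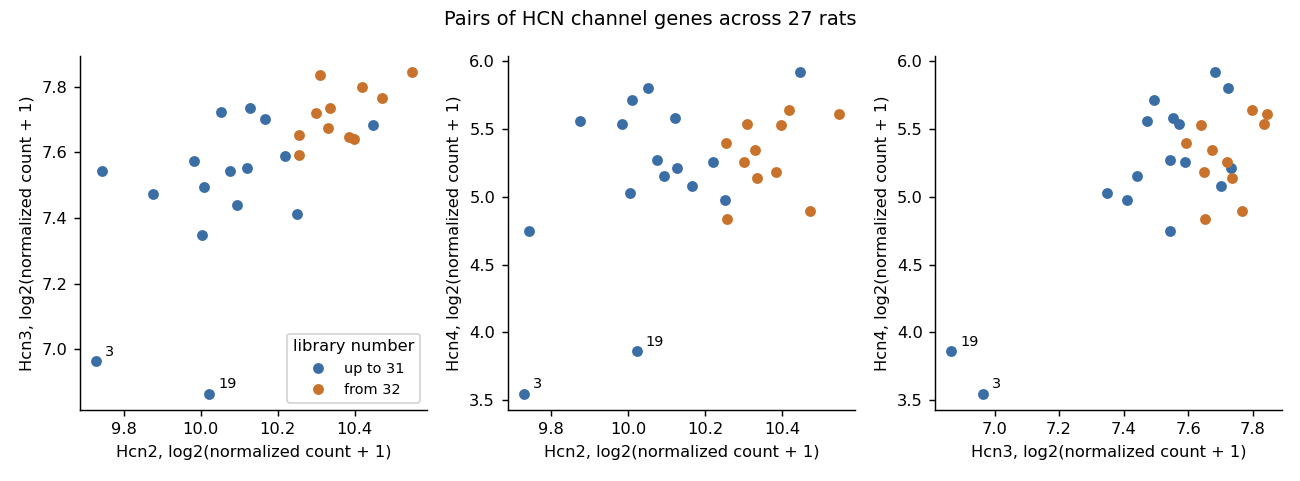
Each pair of HCN genes across 27 rats, as log2(normalized count + 1) on both axes. Points are rats, blue for library numbers up to 31 and orange from 32, with rats 3 and 19 numbered. The pair Hcn2 and Hcn3 has a rho of 0.740 over all rats, 0.468 among the blue and 0.518 among the orange points. In the pair Hcn3 and Hcn4, rats 3 and 19 lie far from the others at the lower left.

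The rats at the low end differed from the others in more than the HCN genes. Rat 3 had the highest summed level of the 11 mature oligodendrocyte genes, 66499 normalized counts against a median of 30282, and the highest of the 8 astrocyte genes, 45020 against 34211, and of the 6 endothelial genes, 4588 against 3443. It had the lowest sum of the 17 potassium channel genes, 6930 against a median of 10705, the lowest of the cyclic nucleotide enzymes, 18133 against 23053, and the lowest of the upper layer neuron genes, 3415 against 4309. Its interneuron sum of 4409 was number 26 of 27, against a median of 4932. Rat 19 had a mature oligodendrocyte sum of 27414, number 20 of 27 from the top, and its meningeal fibroblast sum of 11243 was number 4, against a median of 5339. Its mural sum of 2153 was number 2, against a median of 790.3, and its excitatory neuron sum of 32981 was number 26, against a median of 38688. Its potassium channel sum of 8783 and its cyclic nucleotide enzyme sum of 20186 were the next lowest after rat 3. Rat 18, next to the lowest in Hcn2 and the third lowest in Hcn4, had the lowest mature oligodendrocyte sum, 19077, where rat 3 had the highest. The part of these tissue differences in the low HCN values was not tested.

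Ratios of reads within a library leave the size factor out. Rat 19 had 11.1 Hcn3 reads per 100 Hcn2 reads, the median was 16.2 and rat 18 was highest with 21.7. The coefficient of variation of this ratio was 12.7%, against 8.08% from counting. In the 16 libraries up to 31 the ratio was 16.8 ± 2.58 (SD), and in the 11 from 32 it was 15.9 ± 0.920. Hcn4 reads per 100 Hcn2 reads ran from 1.26 in rat 3 over a median of 3.17 to 5.15 in rat 17, with a coefficient of variation of 30.2% against 18.4% from counting. Hcn4 reads per 100 Hcn3 reads ran from 8.64 in rat 3 over 19.5 to 29.0 in rat 26, with 25.7% against 19.6%.

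Genes beyond the family were then set beside each HCN gene. With Hcn2, 2631 of 11729 genes were called, 1376 rising together with it and 1255 in opposite direction. With Hcn3, 2013 were called, 959 together and 1054 opposite. With Hcn4, 31 or 0.264% were called, 24 together and 7 opposite, and neither Hcn2 nor Hcn3 was among them. With the block difference taken out, 867 genes were called with Hcn2, 504 with Hcn3 and 372 with Hcn4. The counts for Hcn3 and Hcn4 rested in part on rats 3 and 19. Without them 2874 genes were called with Hcn2, 1013 with Hcn3 and 0 with Hcn4 by the Spearman permutation test, and 821 had an unadjusted p under 0.05 with Hcn4. Over all 27 rats 34.2%, 30.9% and 19.1% of the genes had an unadjusted p under 0.05 with Hcn2, Hcn3 and Hcn4. The edgeR quasi-likelihood test, which uses the values and not their ranks, called 24.8% with Hcn2, 29.6% with Hcn3 and 28.5% with Hcn4. With Hcn4 these were 3343 genes in all 27 rats and 0 without rats 3 and 19, where 1038 had an unadjusted p under 0.05. Over all genes the median rho was -0.0092 with Hcn2, 0.0092 with Hcn3 and -0.016 with Hcn4.

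**Figure D3:**
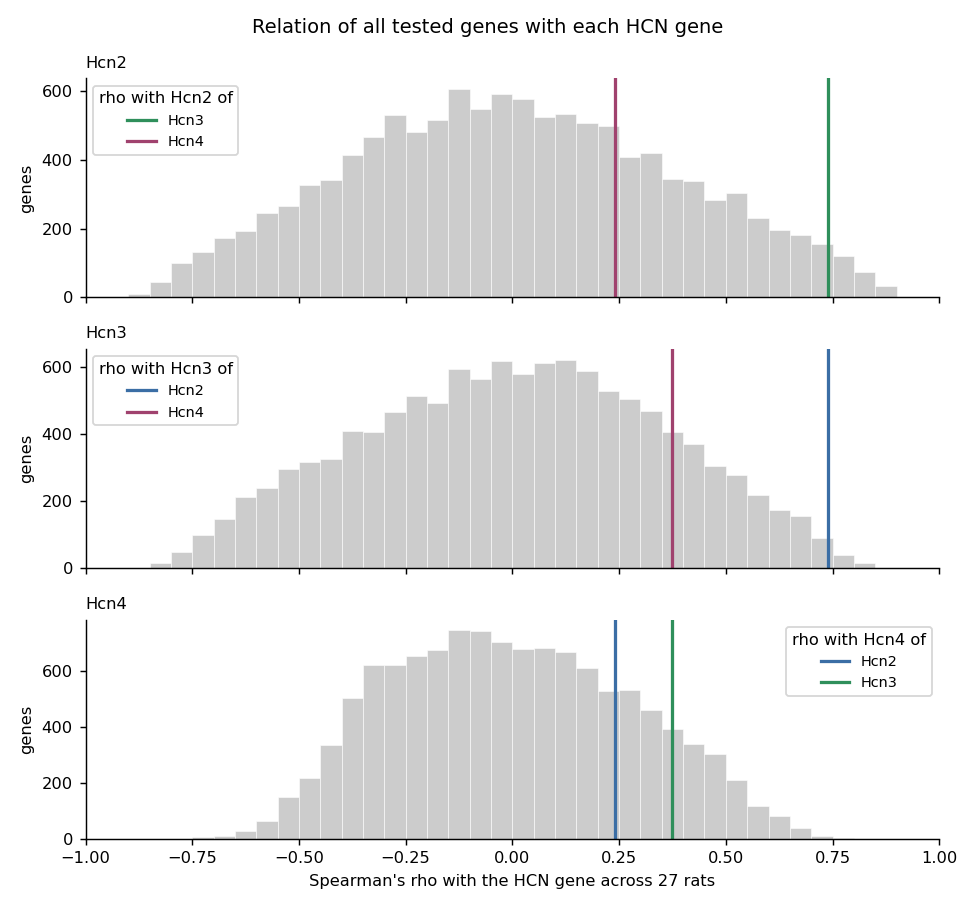
Number of genes (vertical axes) by their Spearman's rho with Hcn2, Hcn3 and Hcn4 across 27 rats (horizontal axis), over all 11729 genes tested. Coloured lines mark the other HCN genes, and the pair Hcn2 and Hcn3 at 0.740 lies in the right tail of both upper panels while the lines in the Hcn4 panel lie at 0.240 and 0.375 within the bulk.

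The 5 genes most like Hcn2 in their pattern over the 27 rats were Zfp575 with a rho of 0.906, Scaf1 with 0.905, Camta2 with 0.897, Med25 with 0.894 and Hgs with 0.891. Camta2 encodes a calmodulin-binding transcription activator, Med25 a Mediator subunit and Hgs a protein of endosomal sorting. All 5 kept a rho of 0.662 or more in the libraries up to 31 and of 0.691 or more in those from 32. Hcn3 was most like Grin1 and Osbp2, each with 0.847, R3hdm2 with 0.846, Sema4f with 0.839 and Cnnm1 with 0.837. Grin1 encodes the obligatory subunit of NMDA receptors, and its rho with Hcn3 was 0.844 up to 31 and 0.582 from 32. The 5 genes had a rho with Hcn3 of 0.621 or more up to 31 and of 0.400, that of Osbp2, or more from 32. Hcn4 was most like Tacr1 with 0.772, Pacs1 with 0.769, Sptan1 with 0.754, and Gas7 and Pi4kb with 0.730 each. Tacr1 encodes the substance P receptor NK1, and at 53.5 ± 13.4 normalized counts (SD, n = 27) it had a rho of 0.768 up to 31 and 0.836 from 32. The 5 genes had a rho with Hcn4 of 0.762 or more up to 31 and of 0.600, that of Sptan1, or more from 32. These genes were picked by their rho among 9759 or 9760 genes, so the values are a description without a test.

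Among 14 measured partners and regulators of HCN channels, 3 rose with Hcn2 and 1 fell, 10 did not pass, where 22.4% of all genes were called. The scaffold gene Grasp (tamalin) had a rho of 0.736 with Hcn2 (permutation test, adjusted p = 5.46e-04), Mapk14, the p38 kinase, 0.572 (adjusted p = 0.0150), and the tyrosine kinase gene Src 0.532 (adjusted p = 0.0270). Vapa, an endoplasmic reticulum tether, was opposite with -0.521 (adjusted p = 0.0334). With Hcn3, where 17.2% of all genes were called, 4 rose and 1 fell: Grasp again with 0.813 (permutation test, adjusted p = 0.00125), Src with 0.655 (adjusted p = 0.00592), Kctd3, a known partner of HCN3, with 0.595 (adjusted p = 0.0148), Magi2 with 0.548 (adjusted p = 0.0284), and the actin cross-linker Flna opposite with -0.537 (adjusted p = 0.0324). With Hcn4, 0 of 14 passed the permutation test, 4 had an unadjusted p under 0.05, against 19.1% of all genes, and edgeR called 8, against 28.5% of all genes, and the highest rho was that of Src with 0.592 (adjusted p = 0.0763). With the block difference taken out, Src was called with each of the 3 HCN genes, with a rho of 0.639 for Hcn2, 0.725 for Hcn3 and 0.592 for Hcn4 (permutation test, adjusted p = 0.0129, 0.00782 and 0.0450). In that setting Grasp was called with Hcn3 alone, Vapb, a paralog of Vapa, with Hcn2 and Hcn3, and no other gene of the list with any of them. The shares of all genes called there were 7.39% with Hcn2, 4.30% with Hcn3 and 3.17% with Hcn4. Without rats 3 and 19 the genes called with Hcn2 were Grasp, Mapk14 and Prkg2, whose rho in all 27 rats was -0.418. Grasp and Src were called with Hcn3, and 0 of 14 with Hcn4. Of all 11729 genes, 2874, 1013 and 0 were called with Hcn2, Hcn3 and Hcn4 in that setting. Irag2 was listed at 0 in every library. The median rho of the list was 0.247 with Hcn2, 0.382 with Hcn3 and 0.248 with Hcn4, beside the medians near 0 over all genes.

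Enzymes that make, break or act on cyclic nucleotides, the ligands of the channels, were measured in 20 of 22 cases, with Adcy9 and Pde1a at 0. With Hcn2, 3 rose and 1 fell, a share of the 20 near the 22.4% of all genes called. Pde4a, a cAMP phosphodiesterase, had a rho of 0.746 (permutation test, adjusted p = 7.15e-04), the adenylyl cyclase gene Adcy5 0.521 (adjusted p = 0.0310) and Pde2a 0.504 (adjusted p = 0.0404), while Prkar1a, a regulatory subunit of protein kinase A, was opposite with -0.484 (adjusted p = 0.0499). With Hcn3, 5 of 20 rose and 0 fell, where 17.2% of all genes were called, led by Pde2a with 0.670 (adjusted p = 0.00665), Adcy5 with 0.657 (adjusted p = 0.00545) and Pde8b with 0.639 (adjusted p = 0.00844). With Hcn4, 0 of 20 passed the permutation test, 11 had an unadjusted p under 0.05, against 19.1% of all genes, and edgeR called 14, against 28.5%, and all 20 had a rho above 0 and their median was 0.398. Rats 3 and 19, lowest in Hcn4, were also the lowest in the sum of these enzymes. The medians with Hcn2 and Hcn3 were -0.061 and 0.199. With the block difference taken out, 1 of 20 was called with Hcn2, Pde4a, 1 with Hcn3, Adcy5, and 2 with Hcn4, Pde2a and Pde10a. Of all genes, 7.39%, 4.30% and 3.17% were called with Hcn2, Hcn3 and Hcn4 in that setting. Leaving out rats 3 and 19 gave 7 of the 20 called with Hcn2, beside 2874 of all 11729 genes. Pde4a and Prkar1a were among the 7 and Adcy5 and Pde2a were not. Gucy1a1, Gucy1a2, Gucy1b1, Prkacb and Prkar2b were added, each with a rho below 0 in all 27 rats. In that setting 2 were called with Hcn3, Adcy5 and Pde2a, and 0 with Hcn4, beside 1013 and 0 of all genes.

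Of 17 potassium channel genes active near rest, whose currents act against Ih, 2 rose with Hcn2, 0 fell and 15 did not pass, a smaller share than the 22.4% of all genes called with Hcn2. Kcnk4, which encodes the leak channel TRAAK, had a rho of 0.861 (permutation test, adjusted p = 3.67e-04), and Kcnk3, the leak channel TASK-1, 0.513 (adjusted p = 0.0337). With Hcn3, 2 of 17 rose, also a smaller share than the 17.2% of all genes, Kcnk4 with 0.742 (adjusted p = 0.00164) and the inward rectifier gene Kcnj4 with 0.527 (adjusted p = 0.0366). With Hcn4, 0 of 17 passed the permutation test, 5 had an unadjusted p under 0.05, against 19.1% of all genes, and edgeR called 12, against 28.5%. With rats 3 and 19 left out, Kcnk4 was called with both Hcn2 and Hcn3, and 0 of 17 were called with Hcn4. Kcnq3 and Kcnd2 were also called with Hcn2, and had a rho below 0 with it in all 27 rats (-0.302 and -0.473). Of all 11729 genes, 2874, 1013 and 0 were called with Hcn2, Hcn3 and Hcn4 in that setting. The call of Kcnk4 with Hcn2 held with the block difference taken out (rho 0.685, permutation test, adjusted p = 0.00745) and that with Hcn3 did not (rho 0.523, adjusted p = 0.0802). Kcnj9 was added for both (rho 0.560 and 0.670, adjusted p = 0.0362 and 0.0185). The shares of all genes called there were 7.39% with Hcn2 and 4.30% with Hcn3.

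TRIP8b is related to the peroxisomal import receptor Pex5, and 10 of 10 genes of peroxisomal import were measured. Pex5 itself had 415 normalized counts on average and a rho of 0.031 with Hcn2, 0.192 with Hcn3 and 0.118 with Hcn4. Pex6, an ATPase that recycles the receptor, rose with Hcn2 (rho 0.487, permutation test, adjusted p = 0.0481). With Hcn3 and Hcn4, 0 of the 10 passed the permutation test, 3 and 0 had an unadjusted p under 0.05, and edgeR called 2 and 0, against 29.6% and 28.5% of all genes. The call of Pex6 was lost without rats 3 and 19 and with the block difference taken out, where Pex13 was called with Hcn3 in opposite direction (rho -0.602, adjusted p = 0.0396).

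**Figure D4:**
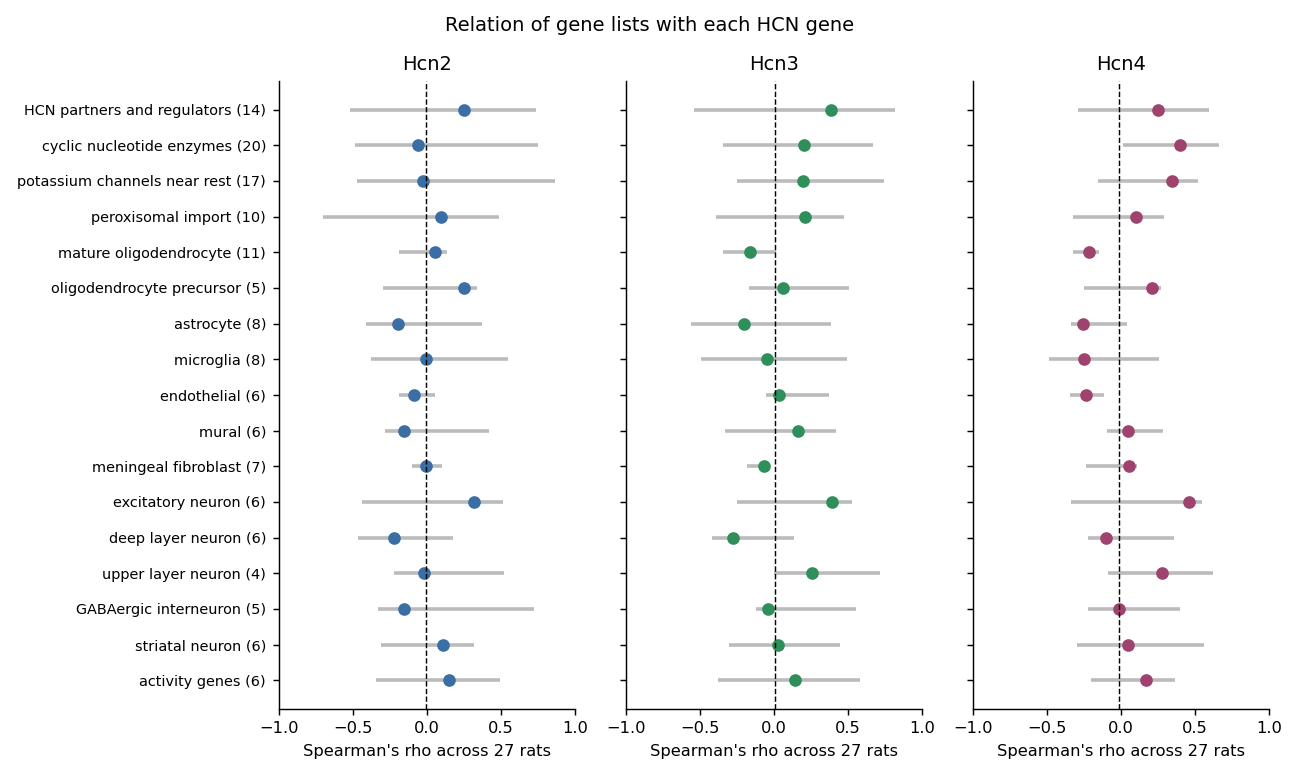
Spearman's rho across 27 rats between the genes of each list and Hcn2, Hcn3 or Hcn4 (horizontal axes). Dots are list medians, grey bars run from the lowest to the highest gene, dashed lines are the median over all genes tested, and the number of genes measured stands in brackets. The 20 cyclic nucleotide enzymes all lie above 0 with Hcn4, and the 11 mature oligodendrocyte genes all lie below 0 with it.

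Of the cell type markers, 0 of 11 mature oligodendrocyte genes were called with any of the 3, with median rho of 0.051, -0.162 and -0.217 for Hcn2, Hcn3 and Hcn4. By the permutation test 0 of the 11 had an unadjusted p under 0.05 with any of them, while edgeR called 0, 2 and 6, against 24.8%, 29.6% and 28.5% of all genes. Slc32a1, the vesicular GABA transporter gene, rose with Hcn2 (rho 0.722, permutation test, adjusted p = 7.15e-04) and with Hcn3 (0.551, adjusted p = 0.0283), but the other 4 measured interneuron genes did not pass and the list median with Hcn2 was -0.153. The upper layer gene Cux2 rose with Hcn2 (0.519, adjusted p = 0.0313) and Hcn3 (0.717, adjusted p = 0.00290), as did Tbr1, a transcription factor of excitatory neurons (0.511 and 0.512, adjusted p = 0.0352 and 0.0446), and Egr1 (0.491 and 0.581, adjusted p = 0.0457 and 0.0174). Egr1 was 1 of 6 activity genes, and the list ran down to -0.343 with Hcn2 and -0.375 with Hcn3, both values those of Junb. Of the 6 excitatory neuron genes, 1 was called with Hcn2 and 2 with Hcn3, Tbr1 and the vesicular glutamate transporter gene Slc17a7 (0.526 with Hcn3, adjusted p = 0.0395), while Neurod6 had -0.439 with Hcn2 and -0.249 with Hcn3. Of the 5 precursor genes, 1 was called with Hcn3, Gpr17 (0.505, adjusted p = 0.0487), while the list ran down to -0.168 with a median of 0.062. Of the 8 astrocyte genes, 1 was called with Hcn3, the gap junction gene Gja1 in opposite direction (-0.559, adjusted p = 0.0248), while the list ran up to 0.381 with a median of -0.205. Of the 8 microglia genes, 1 was called with Hcn2, the receptor gene Cx3cr1 (0.545, adjusted p = 0.0229), while the list ran down to -0.375 with a median of -0.0098. These shares lay beside 22.4% of all genes called with Hcn2 and 17.2% with Hcn3. The endothelial, mural, meningeal fibroblast, deep layer and striatal lists had 0 genes called with Hcn2, Hcn3 or Hcn4 by the permutation test. They had at most 2 genes per list at an unadjusted p under 0.05 and at most 2 called by edgeR. With Hcn4 no list had a gene called by permutation. Of 6 excitatory neuron genes, 4 had an unadjusted p under 0.05 with Hcn4, against 19.1% of all genes. EdgeR called 4 of them, against 28.5%, and their median rho was 0.458. With Hcn4 edgeR also called 2 of 4 upper layer, 3 of 8 astrocyte, 3 of 8 microglia, 1 of 5 interneuron and 0 of 5 precursor genes. Without rats 3 and 19 edgeR called 0 of all genes with Hcn4. With the block difference taken out, the permutation calls of Cux2 with Hcn2 and Hcn3, Cx3cr1 with Hcn2 and Gpr17 with Hcn3 held. The other permutation calls were lost. Cux2 with Hcn4 (rho 0.624, permutation test, adjusted p = 0.0350) and Camk2a with Hcn3 (rho 0.605, adjusted p = 0.0361) were added. Of all genes, 7.39%, 4.30% and 3.17% were called with Hcn2, Hcn3 and Hcn4 in that setting. Without rats 3 and 19, the calls of Slc32a1 with Hcn2 and of Cux2 with Hcn3 held, the others named here were lost, and Nrgn and Aldh1l1 with Hcn2 were added, with a rho of 0.398 and 0.371 in all 27 rats.

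The nearest neighbours of the members in the RefSeq gene list were also read, since reads at the ends of adjoining genes may bear on a count and the sources used here do not say whether counting used strand. Polrmt, which encodes the mitochondrial RNA polymerase, lies next to Hcn2 on the opposite strand. It had 361 ± 56.9 normalized counts (SD, n = 27) and a rho of 0.785 with Hcn2 (permutation test, p = 1.00e-05, the smallest these permutations can give, adjusted p = 3.67e-04). With the block difference taken out that rho was 0.633. The part of shared reads in it was not tested. On the other side of Hcn2, Bsg, which encodes the membrane glycoprotein basigin, had a rho of 0.013. Pklr, which encodes a pyruvate kinase and adjoins Hcn3, was read 10 to 32 times and had a rho of -0.412 (permutation test, adjusted p = 0.124). Clk2, on the other side of Hcn3, had a rho of 0.020, and Rec114, next to Hcn4, had 0.038.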

How the data were processed

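Single-read RNA sequencing of mPFC tissue was done on each rat separately. Raw counts, the reads falling on each gene, were deposited by the authors and are not normalized. The submitters' processing notes name Trimmomatic, STAR and HTSeq, and their versions, the build, the annotation and strandedness are not given in the sources used here. The paper states a 1 mm section and a NEBNext kit, the labels 0.5 mm and a TruSeq kit. All 27 columns were used. Gene IDs were named from RefSeq (GRCr8), which matched 28157 of 36865 rows, 436 of them loci of split genes.

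Size factors were DESeq2's median of ratios (version 1.42.0), and log values log2(normalized count + 1). Rows averaging 10 reads or more were tested for dispersion beyond Poisson counting by chi-square, which assumes independent reads, and entered two-sided Spearman and Pearson tests with 100000 permutations. Library number blocks were compared with edgeR's quasi-likelihood test (version 4.0.16, filterByExpr, TMM). P-values were adjusted by Benjamini-Hochberg over all genes tested, with calls at 0.05. Intervals and floors of 3 counts cover counting error only. Each replicate is a rat of its own. The scripts were tested on simulated data, and used R 4.3.3 and Python 3.11.15 with scipy 1.17.1. Alternatives were other scalings (TMM, total counts, DESeq2 size factors in edgeR), no filter, a pseudocount of 0.1, DESeq2's Wald test, edgeR's test for followed genes, the block taken out, and rats left out.

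The members and lists were chosen with earlier results of these data known. Named were the members, up to 3 called genes in each direction per list and member, the 5 genes most like each member (among genes averaging 50 normalized counts or more) and the nearest genes on each side. Neighbours and strands came from RefSeq positions in GRCr8, and only the Hcn2 promoter is printed with its position, since the build of the counts is not named. Gene lengths were not used. HCN genes other than these were not analysed here. Results of some genes of the lists are not reported here.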

Additional observations from a re-analysis of the deposited data

How the results depend on the processing

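Of the values recomputed under an alternative, 168 kept their direction and side of the threshold or a like count, 9 counts moved, 1 call was lost, 1 was gained and 0 reversed. With the library number block taken out, 867 genes were called with Hcn2, 504 with Hcn3 and 372 with Hcn4 in place of 2631, 2013 and 31, and the pair Hcn2 and Hcn3 had a rho of 0.507 (adjusted p = 0.0653). With edgeR's quasi-likelihood test in place of the Spearman permutation test, 3468 genes were called with Hcn3 and 3343 with Hcn4. Without the filter on low counts, 0 of 15077 genes were called with Hcn4 by the Spearman permutation test, while 2414 had an unadjusted p under 0.05. Pearson's r in place of rho brought the pair Hcn3 and Hcn4 past the threshold (0.753, adjusted p = 0.00548). Without rats 3 and 19, 1013 genes were called with Hcn3 and 0 with Hcn4 by permutation, and 0 with Hcn4 by edgeR, where 821 and 1038 had an unadjusted p under 0.05. The cause was not tested. The settings without rat 3, without rats 3 and 19, and without rats 12 and 20, the highest in 18S ribosomal RNA, were chosen after seeing the data and changed no call of a pair by rho, and those without rat 3 or rats 12 and 20 no block difference. No paired analysis was possible because all rats form 1 group. With 7 to 73 reads per library, depth limits Hcn4 most, and no count of Pex5l can be compared.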

Other observations

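Genes at the opposite end of the ranking over the 27 rats are given as values and were chosen after their values were seen. With Hcn2 the lowest rho were those of Gdi2, which retrieves Rab proteins from membranes, at -0.902, of Rab11a, a Rab protein of recycling endosomes, at -0.885, and of Mex3c at -0.885. Within the libraries up to 31 these were -0.738, -0.597 and -0.676, and within those from 32 they were -0.609, -0.618 and -0.518. With Hcn3 the lowest were Arpc5, a subunit of the actin-nucleating Arp2/3 complex, at -0.869, and Ap1s2 and Ypel5 at -0.846 each. With Hcn4 they were Taf1d at -0.751, Ssbp1, the mitochondrial single-stranded DNA-binding protein gene, at -0.744, and Elof1 at -0.729. No test was run on these picked values.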
